A study of Rattus norvegicus with 12 samples.

Results

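Gene expression in the rat prostate after partial obstruction of the bladder outlet was compared with that after a sham operation in animals that all received Eviprostat, a plant-based preparation used for benign prostatic hyperplasia. The comparison rests on 6 of the 12 arrays of the study, 3 labelled obstruction/Eviprostat and 3 labelled sham/Eviprostat, which were chosen by their titles and not by any measured value. It covers 14623 genes, each represented by its brightest probe. All were male rats of 10 weeks, for which the labels name no strain, dosed with 18 mg/kg of Eviprostat and so with 36 mg/kg daily over 5 days, and killed 2 h after the last dose. The obstruction was a rubber ring tied near the bladder neck, and in these animals dosing began on day 1 after surgery. In the sham-operated animals dosing began on day 5 after surgery, so operation and time since surgery cannot be told apart. The 2 groups given vehicle (0.1% Tween 80) were sham/vehicle and obstruction/vehicle. They are used where the effect of obstruction under Eviprostat is set against that without it. Both Eviprostat groups and obstruction/vehicle had 300 ng of RNA labelled, but sham/vehicle had 1500 ng. Under vehicle, operation and labelled amount therefore cannot be told apart. This holds for each difference of effects too, and the part of the labelled amount was not tested. A group held 5 or 6 animals and its RNA came from tissue pooled within the group, and although the labels call the arrays biological replicates, p-values measure the spread between arrays where nothing ties an array to an animal. On every array Cy5 (red) carried the RNA of its own group and Cy3 (green) carried sham/vehicle RNA, with no dye swap, and a value below is the log2 ratio of Cy5 over Cy3 unless another quantity is named.

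The rat prostate and the seminal vesicles that lie against it secrete most of the fluid of the ejaculate. Seminal vesicle secretory proteins clot to form the copulatory plug, kallikreins are serine proteases of the same fluids, and secretoglobins are small secreted proteins of androgen-dependent glands. Around the urethra the prostate borders on the striated muscle of the urethral sphincter. Partial outlet obstruction is a model of the voiding disorder of prostatic enlargement, and in such tissue interleukin-1 signalling, matrix metalloproteinases and their inhibitors are known parts of inflammation and repair.

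A prostate marker was bright in both groups. Pbsn, which encodes the prostate protein probasin, had a mean Cy5 intensity of 417662 after sham operation and 436139 after obstruction. Cy5 was well above background at 75.6%, 87.2% and 85.8% of spots on the sham arrays and at 70.9%, 78.7% and 84.4% on the obstruction arrays, lowest in each group on slide 1. Each group had a fixed position on the slides, and effects of position and of group cannot be told apart. Of 8 seminal vesicle markers 7 were measured and 6 were lower after obstruction, and their mean log2 ratio ran from 4.59 to 4.64 over the sham arrays and from 0.52 to 0.94 over the obstruction arrays. Of 6 skeletal muscle markers 5 were measured and 4 were lower, with a mean log2 ratio of 1.22 to 1.54 after sham operation and -0.77 to -0.55 after obstruction. In bulk tissue fewer cells of a type and less RNA per cell cannot be told apart, and the part of seminal vesicle or muscle tissue in the differences below was not tested. Among 4 neutrophil markers S100a8 was well above background on none of the 6 arrays and S100a9 on 2 arrays of each group. Csf3r and Cxcr2 were well above background on all 3 arrays of each group, and 0 of the 4 were called.

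The probes of the genes on which the comparison turns are shown by 30 of their 60 bases, with their rat build rn3 positions per the file headers, because closely related family members could be read by each other's probe. The probes of Svs5 (chr3:155171865-155171924), Svs3a (chr3:155139020-155139079) and Svs6 (chr3:155154248-155154307) lie close together on chromosome 3. They matched in at most 24 of 60 bases without gaps. The probes of Klk1c9 (chr1:94660809-94660868) and Klk1c2 (chr1:94550409-94550468) matched in 44 of 60 bases and shared an unbroken run of 33, so these kallikreins may not be read apart. Capitals mark the printed part of that run of the kallikrein probes, not every base they share. The probes of Scgb1d4 (chr1:212282985-212283044) and Scgb1d2 (chr1:212174970-212175029) matched in 23 of 60. Probes were compared only with each other and not with transcripts, so a low match does not show that genes are read apart. The leading raised genes Gys2 (chr4:180229197-180229256) and Mmp7 (chr8:4533647-4533706) and the muscle gene Myh4 (chr10:53967556-53967615) follow.
Svs5: accagggagaaagtgaatgaggaaagcagg
Svs3a: ctcttgtagagttacacagaatagaaaaca
Svs6: ggaaatagagcggtctttcacacggaaaaa
Klk1c9: TGAGAAGTGCATCGAAACCTACAAAaacat
Klk1c2: TGAGAAGTGCATCGAAACCTACAAAgacaa
Scgb1d4: ttggttctcagaaattaactgactttcact
Scgb1d2: tgggtagaaacatattatcctgagatcgat
Gys2: gtagccaccgacatgtgtcaccgtactgtg
Mmp7: agtctgacaaatctcaggtaacacgacaga
Myh4: aggacctagtggataaattacagactaaag

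Under Eviprostat, genes of the seminal vesicle secretion, of the secretoglobin and kallikrein families and of skeletal muscle were lower after obstruction than after sham operation. Fewer genes were higher, led by Gys2, Mmp7, Plac8, Il1rn and Timp1. Of 36102 probes tested by limma with Benjamini-Hochberg adjustment, 823 passed an adjusted p of 0.05 (2.28%), 350 higher and 473 lower. By gene, 92 were higher (0.629% of 14623) and 271 lower (1.85%). These are the shares over all genes for the counts of called list members below, unless another fit or comparison is named. At least 2-fold differences were found for 28 higher and 102 lower genes, and at least 4-fold ones for 5 and 32. The arrays of the groups overlapped for 0 of the 363 called genes, an outcome that selection by p-value favours. The sign was the same on all 3 slides for 362 of them, and Tnnc2 (named after its values were seen) lacked a value on 1 slide. The median absolute log2 difference over all genes was 0.11 and its 99th percentile 1.00. Slides carried 1 array of each group, and with the replicate number as a block 1599 probes were higher and 1558 lower. With the median of each array subtracted in place of loess, 33 were higher and 107 lower, and of the 76 called genes described below with their values under other settings 30 kept their call.

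**Figure D1:**
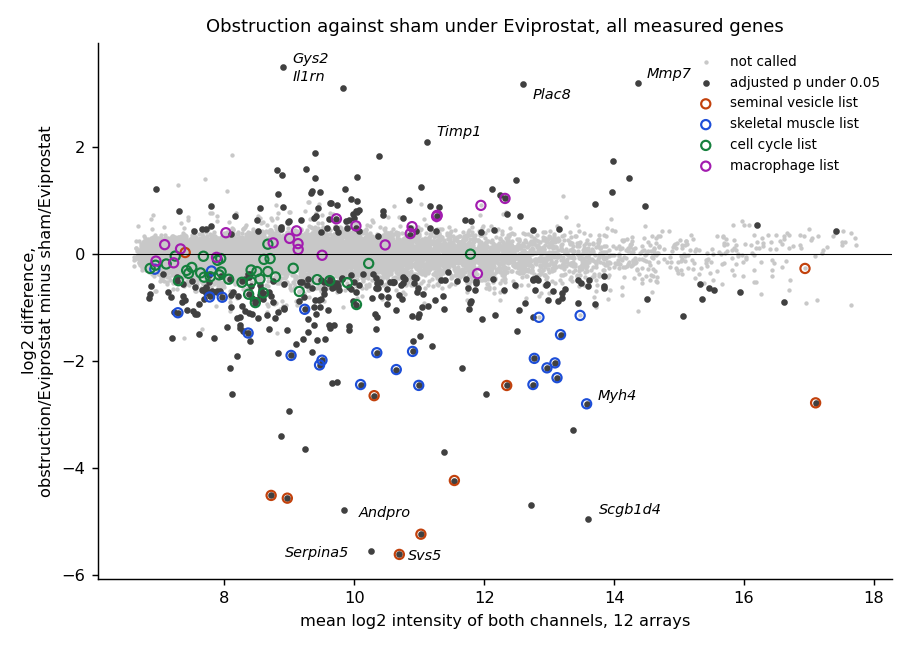
Each point is a gene, placed by its mean log2 intensity over both channels and 12 arrays (horizontal) and by the log2 difference of obstruction/Eviprostat minus sham/Eviprostat (vertical); dark points passed an adjusted p of 0.05 and rings mark 4 gene lists. The largest differences are negative, reaching -5.62 for Svs5, and seminal vesicle and skeletal muscle genes lie below most genes of like intensity.

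The seminal vesicle secretory genes were lower after obstruction, and Svs5 had the largest difference of all genes. Of 14 genes listed 10 were measured, 8 were lower after obstruction and 0 higher, with a median log2 difference of -3.51 over the 10 against -0.0035 over all genes. Of all genes 1.85% were lower and 0.629% higher. Svs5 had log2 ratios of 6.65, 7.33 and 7.43 on the sham/Eviprostat arrays and of 0.52, 1.99 and 2.05 on the obstruction/Eviprostat arrays, a difference of -5.62 ± 0.35 (SE, n = 3 arrays a group; limma adjusted p = 3.22e-06). Every sham array was far above the sham/vehicle reference, and the obstruction arrays were nearer to it. Svs3a stood at 5.44, 5.78 and 5.84 after sham operation and at 0.24, 0.55 and 0.57 after obstruction, a difference of -5.24 ± 0.13 (adjusted p = 1.03e-09). Svs7 differed by -4.56 ± 0.36 and Svs6 by -4.23 ± 0.31. Spink1l, a secreted Kazal-type protease inhibitor, differed by -4.51 ± 0.32. Svs7 and Spink1l were well above background on 2 of 3 obstruction arrays. Their mean Cy5 there was 421 and 422, against 374 and 380 in sham/vehicle, so these sizes rest on values near background. Over the 19 other settings they ran from -5.59 to -3.55 for Svs7 and from -5.16 to -2.93 for Spink1l. Among the called members the smallest difference was that of Svs3b, at -2.46 ± 0.17. Semg1 and Tgm4, which encode a semen clotting protein and the prostate transglutaminase that crosslinks the clot, had differences of -0.27 and 0.03 that did not pass, with overlapping arrays. The median group mean of the list was -0.0082 for sham/vehicle, 3.81 for sham/Eviprostat, 5.38 for obstruction/vehicle and 0.17 for obstruction/Eviprostat.

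The Cy3 channel, which carried the same sham/vehicle RNA throughout, was also not equal between the groups at these spots. Its log2 difference, obstruction minus sham, was -2.41 for Svs5, -1.78 for Svs3a and -3.23 for Svs6, with a median of -1.40 over the list against -0.0016 over all genes. A Cy3 signal that is high together with Cy5 makes the ratio smaller, and Cy5 taken alone gave -8.02 for Svs5, -7.02 for Svs3a and -7.47 for Svs6. Svs4 was unlike these 3 genes. Its mean Cy5 intensity was 540802 after sham operation and 404819 after obstruction, a small drop beside its ratio difference of -2.78. The part of Cy3 in the ratios was not tested further. With Cy5 alone 7 of the 10 genes were called lower.

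The promoters of these genes were read from RefSeq (GRCr8; 250 bases before to 50 after the start) because the genes moved together. Of the 8 lower genes 6 had an entry, not Svs1 and Svs7, and 5 of these (Svs3a, Svs3b, Svs4, Svs5 and Svs6) held a TATAAA box on either strand, a core promoter element, which 14.2% of all 33469 promoters held. The half-site AGAACA, a letter pattern of steroid hormone response elements, was found in 1 of the 6, Svs5, against 20.7% of all promoters. Each motif was searched on both strands. These matches describe letters and no measured binding. The 250 bases before the start of Svs5 (chr3:173415271-173415520, plus strand, GRCr8) are shown with TATAAA, 28 bases before the start, and the reverse complement of AGAACA, 199 before it, in capitals.
Svs5 promoter: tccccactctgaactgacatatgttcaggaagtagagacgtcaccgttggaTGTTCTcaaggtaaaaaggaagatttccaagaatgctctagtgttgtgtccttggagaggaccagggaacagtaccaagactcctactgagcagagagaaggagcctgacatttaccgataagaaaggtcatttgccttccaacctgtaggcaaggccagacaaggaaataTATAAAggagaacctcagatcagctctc

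Other secreted proteins of the male glands were lower as well. Serpina5, the protein C inhibitor found in seminal plasma, had log2 ratios of 5.70, 5.77 and 5.71 after sham operation and of 0.12, 0.20 and 0.18 after obstruction, a difference of -5.55 ± 0.31 (adjusted p = 1.21e-06). Scgb1d4, a secretoglobin, stood at 3.04, 3.62 and 3.62 against -1.61, -1.51 and -1.47, a difference of -4.95 ± 0.21 (adjusted p = 1.39e-07). The obstruction arrays lay below the reference while the sham arrays lay above it. The related Scgb1d2 differed by -4.69 ± 0.10, and Sbp, the spermine-binding protein of the prostate, by -3.70 ± 0.14, both with obstruction arrays below 0. Andpro had 5.02, 5.30 and 5.25 after sham operation and 0.13, 0.53 and 0.53 after obstruction, a difference of -4.79 ± 0.21 (adjusted p = 1.73e-07). Its mean in obstruction/vehicle was -0.72, so among the 4 groups sham/Eviprostat alone had a high level. Of 22 measured genes on the prostate secretory list 7 were lower and 2, Wfdc5 and Defb1, higher, with a median of -0.12. Wfdc3, a protein with a whey acidic protein domain, was among the lower ones, at -0.90 ± 0.11 (adjusted p = 0.000687), and this call ended with the arrays centred on their median.

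Kallikreins and protease inhibitors of the secretion were lower too. Klk1c9 had log2 ratios of 3.25, 3.39 and 3.32 after sham operation and of -0.13, 0.04 and -0.14 after obstruction, a difference of -3.39 ± 0.26 (adjusted p = 1.59e-05). Klk1c2, whose probe shares a long run with that of Klk1c9, differed by -2.93 ± 0.24, and Klk1, tissue kallikrein, by -1.33 ± 0.15. For all 3 kallikreins the obstruction arrays were close to the reference. Slpi, the secretory leukocyte protease inhibitor, stood at 3.05, 3.05 and 2.89 against 0.33, 0.48 and 0.36, a difference of -2.61 ± 0.11 (adjusted p = 1.43e-07). Wfdc21, another whey acidic protein domain gene, differed by -3.64 ± 0.20, with a Cy3 difference of -1.03. Spink1, a trypsin inhibitor, was not well above background on any obstruction array and was so on all 3 sham arrays. Its fitted difference of -1.41 missed the threshold (adjusted p = 0.0646) and passed it with the replicate block (adjusted p = 0.0132), with median centring and with the deposited log ratio, among other settings. A dimmer Spink1 probe was called lower, at -0.62 ± 0.09 (adjusted p = 0.00365).

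Among other epithelial genes, Qsox1, a secreted enzyme that forms disulphide bonds, was lower by -3.29 ± 0.21, with -1.86 from a dimmer probe. Trpv6, an epithelial calcium channel, had log2 ratios of 1.65, 2.24 and 2.19 after sham operation and of 0.03, 0.17 and 0.17 after obstruction, a difference of -1.90 ± 0.24 (adjusted p = 0.00117). Egf, epidermal growth factor, stood at 1.21, 1.21 and 1.31 against 0.09, -0.04 and 0.05, a difference of -1.21 ± 0.09 (adjusted p = 1.73e-05), a call that ended with median centring. Its sham/Eviprostat arrays were the high ones, with a mean of 0.04 in obstruction/vehicle.

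**Figure D2:**
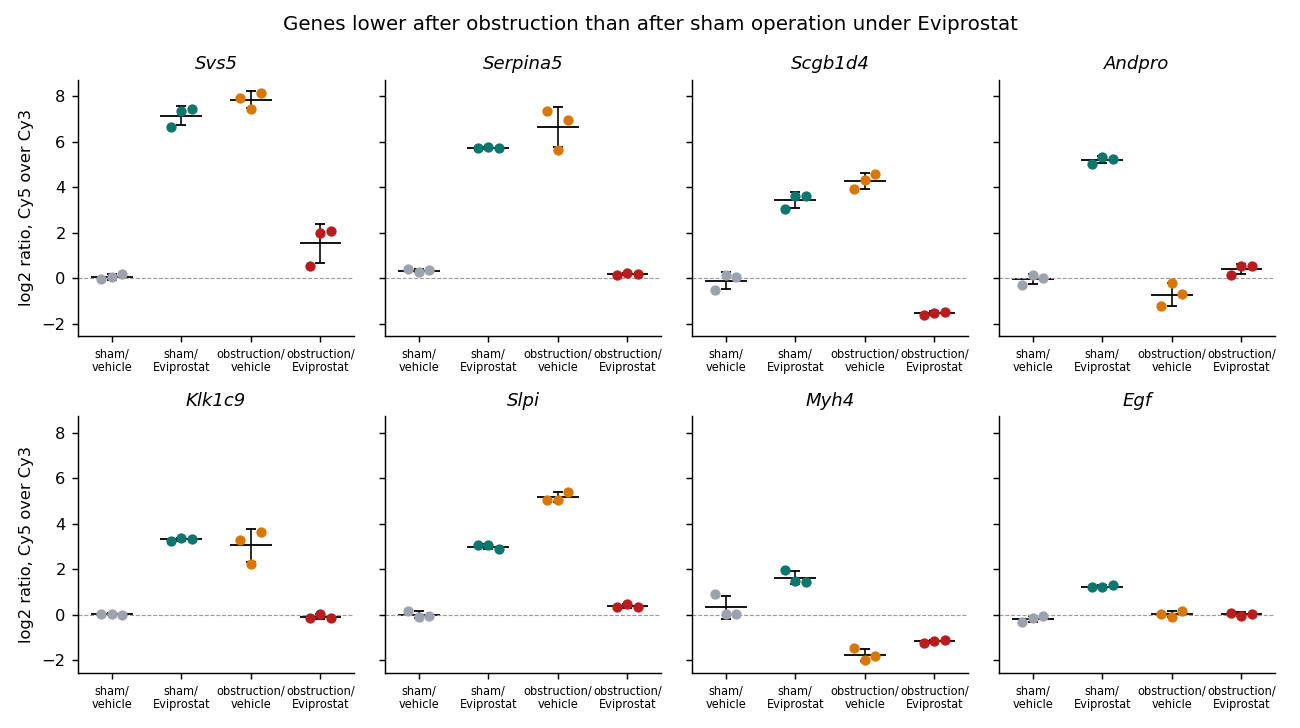
Log2 ratio of Cy5 over Cy3 (vertical) on each of the 3 arrays of 4 groups (horizontal) for 8 genes that were lower after obstruction under Eviprostat; horizontal bars are group means and whiskers SDs. Sham/Eviprostat arrays stand high for every gene shown; obstruction/vehicle arrays stand high too for Svs5, Serpina5, Scgb1d4, Klk1c9 and Slpi, but not for Andpro, Myh4 and Egf.

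Skeletal muscle genes made up the second large group. Of 29 listed 24 were measured, 19 were lower and 0 higher, all 24 differences were negative, and the median was -1.87. Among all genes 1.85% were lower, and 7429 of 14623 differences were negative. Myh4, the fast IIb myosin heavy chain, had log2 ratios of 1.98, 1.49 and 1.44 after sham operation and of -1.24, -1.14 and -1.11 after obstruction, a difference of -2.80 ± 0.23 (adjusted p = 3.17e-05). The sham arrays lay above the sham/vehicle reference and the obstruction arrays below it. Actn3, the Z-disc protein of fast fibres, stood at 1.94, 1.33 and 1.25 against -0.49, -1.10 and -1.20, a difference of -2.44 ± 0.21 (adjusted p = 5.31e-05). Pvalb, the calcium buffer parvalbumin, differed by -2.46 ± 0.30. Ckmt2, a mitochondrial creatine kinase of striated muscle, differed by -2.44 ± 0.41 (adjusted p = 0.00829), a call lost without obstruction/Eviprostat replicate 2 or 3, with differences between -2.65 and -2.17 over the fits without 1 array. Pygm, muscle glycogen phosphorylase, differed by -1.03 ± 0.15. Acta1 and Mb, skeletal actin and myoglobin, had differences of -1.15 (adjusted p = 0.0688) and -1.18 (adjusted p = 0.0773) that did not pass, and passed with the replicate block (adjusted p = 1.035e-05 and 0.00186). The list's median group mean was 0.0054 in sham/vehicle, 1.18 in sham/Eviprostat, -0.62 in obstruction/vehicle and -0.50 in obstruction/Eviprostat. With median centring 11 members were called.

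Of the 19 lower muscle genes 17 had a promoter entry, and 8 of them (Atp2a1, Ckm, Ckmt2, Eno3, Mybpc1, Myh4, Myl11 and Pygm) held CAGCTG, an E-box of the kind that myogenic factors bind and which reads the same on both strands, against 15.1% of all promoters. Myh4 is shown because it had the largest muscle difference. The 250 bases before its start (chr10:52421898-52422147, plus strand, GRCr8) carry CAGCTG 81 bases before the start, in capitals.
Myh4 promoter: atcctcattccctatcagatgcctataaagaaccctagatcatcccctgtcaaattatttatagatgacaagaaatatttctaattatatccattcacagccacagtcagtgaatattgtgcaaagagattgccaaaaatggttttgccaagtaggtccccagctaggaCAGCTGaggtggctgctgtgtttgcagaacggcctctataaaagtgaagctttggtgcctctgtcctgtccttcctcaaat

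A few genes of cell division were lower. Of 38 measured, 4 were lower and 0 higher, 37 differences were negative and the median was -0.34. Among all genes 1.85% were lower, and 7429 of 14623 differences were negative. Cdk1, the kinase that drives entry into mitosis, had log2 ratios of 0.15, 0.20 and 0.16 after sham operation and of -0.66, -0.87 and -0.79 after obstruction, a difference of -0.94 ± 0.09 (adjusted p = 9.82e-05). The brightest probe listed for Aurkb, a kinase of chromosome segregation, differed by -0.91 ± 0.09, but it was named through an older symbol and lies on chromosome 20 of rn3. The other Aurkb probe, on chromosome 10, where RefSeq places the gene, gave -0.21 and was not called, so this call may belong to another gene. Mcm6, a subunit of the replicative helicase, and Top2a, topoisomerase II, differed by -0.75 ± 0.14 and -0.73 ± 0.15, and a dimmer Top2a probe gave -0.28 and was not called (adjusted p = 0.337). The call of Mcm6 was lost without replicate 2 or 3 of either group (-0.89 to -0.63), and that of Top2a without any obstruction array or without sham replicate 2 or 3 (-0.89 to -0.62). Mki67, the proliferation marker, had a difference of -0.50 that did not pass (adjusted p = 0.0741) and passed with the replicate block (adjusted p = 0.0206). The block raised the number of lower genes of the list to 17, where it called 5.77% of all genes lower. The fit on slides 2 and 3 also gave 17, and it raised the lower probes from 473 to 1296. Median centring gave 0 lower genes of the list.

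Of 27 measured genes of glycolysis and the response to low oxygen 4 were lower and 0 higher, where 1.85% of all genes were lower. The median of the list was -0.20. Gapdh, whose product is a glycolytic enzyme, had log2 ratios of 0.38, 0.60 and 0.57 after sham operation and of -0.18, -0.11 and -0.12 after obstruction, a difference of -0.66 ± 0.11 (adjusted p = 0.00664). Ldha, lactate dehydrogenase, differed by -0.59 ± 0.09 and Aldoa, an aldolase of muscle and other tissues, by -0.92 ± 0.17. Adm, adrenomedullin, a vasodilator peptide induced by low oxygen, differed by -0.84 ± 0.17. The call of Aldoa ended without obstruction replicate 1 or sham replicate 2 or 3 (-1.06 to -0.78), and that of Adm without any array of the 6 (-0.90 to -0.79). Pkm, pyruvate kinase, had a difference of -0.61 that did not pass (adjusted p = 0.0902) and passed with the replicate block (adjusted p = 0.00255). All 4 calls ended with median centring.

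The highest positive difference was that of Gys2, the liver form of glycogen synthase. It had log2 ratios of -1.46, -1.39 and -1.56 after sham operation and of 1.57, 2.28 and 2.24 after obstruction, a difference of 3.50 ± 0.21 (adjusted p = 2.35e-06), and its other probe gave 1.90. Sham arrays lay below the reference and obstruction arrays above it. Of 15 measured glycogen genes it was the 1 that was higher, Pygm was the 1 that was lower, and the list's median was -0.24. Plac8, a small cysteine-rich protein of epithelial and immune cells, had -1.66, -1.59 and -1.54 against 1.52, 1.60 and 1.61, a difference of 3.18 ± 0.10 (adjusted p = 5.44e-09). Its arrays showed the same layout around the reference.

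Several secreted and epithelial genes, Tmprss2 less clearly, were below the reference in sham/Eviprostat and at or above it in obstruction/Eviprostat. Wfdc5, a whey acidic protein domain gene, had log2 ratios of -1.63, -1.48 and -1.59 after sham operation and of 0.08, 0.41 and 0.29 after obstruction, a difference of 1.83 ± 0.20 (adjusted p = 0.000299). Defb1, an antimicrobial beta-defensin, stood at -1.44, -1.02 and -0.98 against 0.43, 0.62 and 0.75, a difference of 1.74 ± 0.16 (adjusted p = 6.79e-05). Sult1b1, a sulfotransferase, differed by 1.58 ± 0.17, and Nat8, an acetyltransferase, by 1.59 ± 0.17, although a dimmer Nat8 probe gave -0.02. Tmprss2, an androgen-regulated membrane protease of the prostate, stood at -0.48, -0.01 and -0.04 against 0.91, 1.11 and 1.08, a difference of 1.21 ± 0.19 (adjusted p = 0.00508). On slides 2 and 3 its sham arrays were near the reference, and on slide 1 the sham/vehicle array also read -0.49. As for all 363 called genes, no array of a group reached into the range of the other, so this adds no support for these 5. The calls of all 5 ended with median centring.

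Another set was near the reference after sham operation and above it after obstruction. Mmp7, the epithelial metalloproteinase matrilysin, had log2 ratios of -0.00089, 0.10 and 0.12 after sham operation and of 3.14, 3.37 and 3.27 after obstruction, a difference of 3.19 ± 0.10 (adjusted p = 5.44e-09). Its mean was 0.06 in sham/vehicle and -0.12 in obstruction/vehicle, so obstruction/Eviprostat was the 1 group of 4 with a high level. Il1rn, the antagonist of the interleukin-1 receptor, had 0.37, -0.06 and -0.01 against 3.37, 3.09 and 3.14, a difference of 3.10 ± 0.24 (adjusted p = 1.67e-05). Its other probe gave 0.70 and was not called. Timp1, an inhibitor of metalloproteinases, stood at 0.42, 0.23 and 0.18 against 2.40, 2.39 and 2.33, a difference of 2.10 ± 0.11 (adjusted p = 1.18e-06). A2m, a broad protease inhibitor of the acute phase, differed by 1.90 ± 0.14, from a sham mean of -0.31 to an obstruction mean of 1.58. Among 28 measured proteases and inhibitors, Mmp7 and Timp1 were higher and Ctsd and Mmp2, a lysosomal protease and a gelatinase, were lower by -0.70 ± 0.14 and -0.51 ± 0.10. A dimmer Mmp2 probe gave -0.03 and was not called (adjusted p = 0.947). The calls of Ctsd and Mmp2 ended without any obstruction array or without sham replicate 2 or 3 (-0.82 to -0.62 and -0.58 to -0.48) and with median centring.

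Clu, which encodes clusterin, a chaperone known to rise in the regressing prostate, had log2 ratios of 0.42, -0.42 and -0.44 after sham operation and of 1.53, 1.15 and 1.15 after obstruction, a difference of 1.42 ± 0.29 (adjusted p = 0.0255). In both groups the slide 1 array was the highest. Its call was lost in each fit without 1 array except that without sham replicate 1 (1.28 to 1.70), and with the replicate block its adjusted p was 6.86e-06. Ccn2, a connective tissue growth factor, differed by 1.42 ± 0.23 (adjusted p = 0.00671) and Tnnt2, cardiac troponin T, by 1.44 ± 0.15 (adjusted p = 0.000245), both calls ending with median centring. Rasd1, a small GTPase induced by glucocorticoids, differed by 1.48 ± 0.30 (adjusted p = 0.0224) and by 0.29 on its other probe, and its call ended without replicate 2 or 3 of either group (1.41 to 1.58). Anxa1, the glucocorticoid-induced annexin that limits inflammation, differed by 1.38 ± 0.25 (adjusted p = 0.0117), a call that ended without obstruction replicate 2 or 3 (1.17 to 1.49), with median centring and without background correction. Its other probe gave 0.88 and was not called (adjusted p = 0.100).

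**Figure D3:**
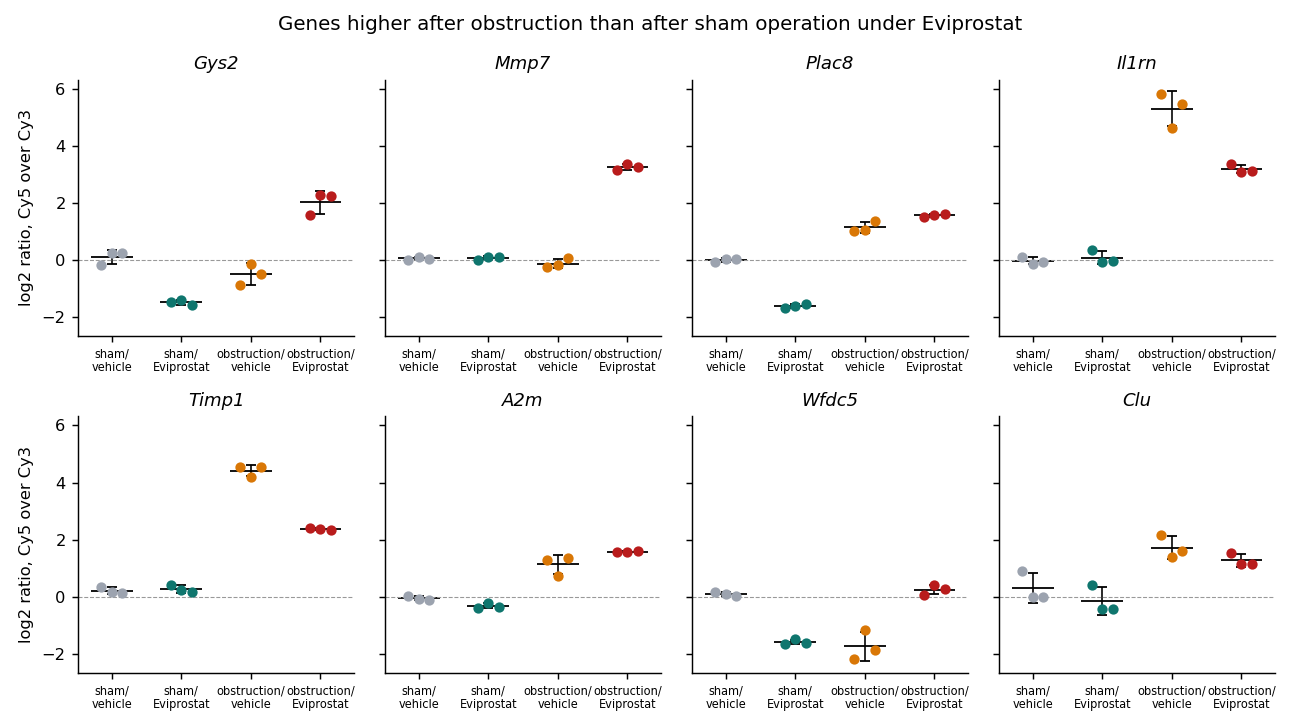
Log2 ratio of Cy5 over Cy3 (vertical) on each of the 3 arrays of 4 groups (horizontal) for 8 genes that were higher after obstruction under Eviprostat; horizontal bars are group means and whiskers SDs. For Gys2, Plac8 and Wfdc5 the sham/Eviprostat arrays lie below 0, whereas for Mmp7, Il1rn and Timp1 they lie near 0 and the obstruction/Eviprostat arrays lie between 2.33 and 3.37.

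Il1b, the cytokine that Il1rn opposes, had log2 ratios of -0.11, -0.24 and -0.20 after sham operation and of -0.11, 0.17 and -0.03 after obstruction, a difference of 0.19 with a 95% interval from -0.10 to 0.48 (adjusted p = 0.661). Il6, Ptgs2 (the inducible cyclooxygenase) and Tnf had differences of 0.02, 0.05 and 0.09, none of which passed. Of 26 measured cytokine genes Il1rn was the 1 called, and of 31 chemokine genes 2 were higher, where 0.629% of all genes were called higher. These were Cxcl14 (0.88 ± 0.17, adjusted p = 0.0172) and Ccl6 (0.82 ± 0.17, adjusted p = 0.0255), chemokines of epithelium and of myeloid cells. Without 1 array at a time both calls held only in the fit without obstruction replicate 1, with differences from 0.81 to 0.94 and from 0.68 to 0.91, and both ended with median centring. Of 31 immediate early and stress genes 0 were called, with Jun at -0.42 (adjusted p = 0.0729; 0.0210 with the replicate block), and of 24 interferon and class I genes 0. Of 19 NF-kB and TNF target genes 1 was lower, Selp, the adhesion molecule P-selectin (-0.56 ± 0.09, adjusted p = 0.00508), a call that ended with median centring.

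A few macrophage and complement genes were higher. Of 22 measured macrophage genes 3 were higher and 0 lower, with a median of 0.25, where 0.629% of all genes were higher. Lyz2, the lysozyme of myeloid cells, had log2 ratios of -0.57, -0.41 and -0.39 after sham operation and of 0.48, 0.60 and 0.67 after obstruction, a difference of 1.04 ± 0.12 (adjusted p = 0.000469). C1qb and C1qc, chains of the first complement component made by macrophages, differed by 0.70 ± 0.16 and 0.66 ± 0.12. The call of C1qb ended without any array but obstruction replicate 1 (0.57 to 0.81), that of C1qc without obstruction replicate 2 or 3 (0.57 to 0.71), and those of all 3 genes with median centring. Tyrobp, a signalling adaptor of myeloid cells, and Fcgr2a, an Fc receptor, had differences of 0.51 (adjusted p = 0.0726) and 0.91 (adjusted p = 0.124) that did not pass. They passed with the replicate block (adjusted p = 0.00339 and 0.000189), which gave 7 higher macrophage genes and 1 lower one, where it called 3.67% of all genes higher and 5.77% lower. Dimmer probes gave 0.05 for Tyrobp, 0.29 and 0.43 for Fcgr2a and 0.43 for C1qc, and were not called. The macrophage markers Cd68, Adgre1 and Csf1r (named after their values were seen) differed by -0.02, 0.09 and 0.19 and were not called. Of 26 complement and acute phase genes 3 were higher, A2m, C1qb and C1qc, against 0.629% of all genes. Of 20 measured neutrophil genes 1 was called, Slpi, which was lower, and for T and NK, B and plasma, and mast cells 0 of 19, 6 and 9 genes were called.

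Few matrix genes were called, where 0.629% of all genes were higher and 1.85% lower. Of 41 extracellular matrix genes 3 were higher and 0 lower, with a median of -0.09: Ccn2, Mgp, the matrix Gla protein (0.90 ± 0.20, adjusted p = 0.0414), and Loxl1, a collagen-crosslinking oxidase (0.68 ± 0.15, adjusted p = 0.0326). The call of Mgp ended without any array but sham replicate 1 (0.77 to 1.101), that of Loxl1 without any array but obstruction replicate 1 (0.62 to 0.77), and both with median centring. Col1a1, the main fibrillar collagen chain, had log2 ratios of 1.08, 0.67 and 0.65 after sham operation and of 0.85, 0.40 and 0.31 after obstruction. Both groups were above the reference, and their difference of -0.28 had a 95% interval from -0.70 to 0.14 (adjusted p = 0.642). Of 20 TGF-beta and BMP genes 0 were called. Of 16 smooth muscle genes 1 was lower, Myh11, the smooth muscle myosin heavy chain (-0.63 ± 0.13, adjusted p = 0.0258), a call lost without any obstruction array or sham replicate 2 or 3 (-0.75 to -0.56) and with median centring. A dimmer Myh11 probe gave -0.05 on overlapping arrays and was not called (adjusted p = 0.887).

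Androgen-regulated genes were called in both directions. Of 27 measured androgen-regulated genes 3 were lower (Klk1c9, Trpv6 and Klk1) and 1 higher (Tmprss2), with a median of 0.17. Pbsn had log2 ratios of -0.16, 0.12 and 0.21 after sham operation and of 0.18, 0.25 and 0.27 after obstruction, a difference of 0.18 (adjusted p = 0.686) on overlapping arrays, with Cy5 saturated on 1 sham and 2 obstruction arrays. Of 20 prostaglandin and leukotriene genes 2 were lower. Hpgd, which inactivates prostaglandins, had log2 ratios of -0.0021, 0.50 and 0.59 after sham operation and of -1.18, -1.08 and -0.98 after obstruction, a difference of -1.44 ± 0.21 (adjusted p = 0.0034), and ended as a call with median centring. Lta4h, an enzyme of leukotriene B4 synthesis, differed by -0.52 ± 0.11 (adjusted p = 0.0315), a call that ended without any array of the 6 (-0.59 to -0.45). With the replicate block 4 androgen-regulated genes were higher and 6 lower, where it called 3.67% of all genes higher and 5.77% lower.

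The other lists held few calls. Gstm1, a glutathione transferase, was lower by -0.99 ± 0.13 (adjusted p = 0.00162) and Nqo1, a quinone reductase, higher by 0.38 ± 0.08 (adjusted p = 0.0391), among 26 antioxidant genes. Chrm3, the muscarinic receptor of bladder and gland, was lower by -0.84 ± 0.18 (adjusted p = 0.0358), the 1 call of 18 adrenergic and muscarinic genes. Ribosomal protein genes had 24 of 26 differences above 0 and 2 higher, among them Rps23 (0.43 ± 0.09), with a median of 0.24. Over all genes 7194 of 14623 differences were above 0. The block gave 7 higher ribosomal protein genes, where it called 3.67% of all genes higher. Igfbp4, a binding protein of insulin-like growth factors, was higher (0.49) and, with Egf, the other call of the growth factor list. A dimmer Igfbp4 probe gave 0.16 on overlapping arrays and was not called (adjusted p = 0.645). Single calls of class II presentation, basal epithelium, nerve, adipocyte and zinc lists were RT1-Ba, a class II chain (0.47), Krt15, a basal keratin (-0.49), Tubb3, neuronal tubulin (-0.47), Slc2a4, the insulin-regulated glucose transporter (-0.55), and Mt3, a metallothionein (-0.67). A dimmer Slc2a4 probe gave 0.10 and was not called (adjusted p = 0.712). The sterol genes Idi1 (0.67) and Hmgcs1 (-0.64) and the protein folding and amino acid stress genes Herpud1 (0.45), Asns (-0.49) and Pdia3 (-0.54) went in both directions. Dimmer probes of Idi1, Hmgcs1 and Herpud1 gave 0.51, -0.40 and 0.41 and were not called. Of the 15 genes given with values in this paragraph Gstm1, Slc2a4, Mt3 and Hmgcs1 kept their calls in every fit without 1 array. The other 11 lost them without obstruction replicate 2, and 10 of these, not Asns, without obstruction replicate 3. In the fits without 1 array the differences of the 6 higher genes among these 11 ran from 0.30 to 0.80 and those of the 5 lower genes from -0.97 to -0.41. All 15 calls ended with median centring. In 13 lists, among them endothelium, urothelium, red cells, luminal keratins, oxidative phosphorylation, clock and glucocorticoid response genes, limma called 0 of 209 genes. Of these 11 were higher and 20 lower at an unadjusted p under 0.05, which 5.4% and 6.85% of all genes reached. The replicate block called 9 of the 209 higher and 14 lower, where it called 3.67% and 5.77% of all genes.

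**Figure D4:**
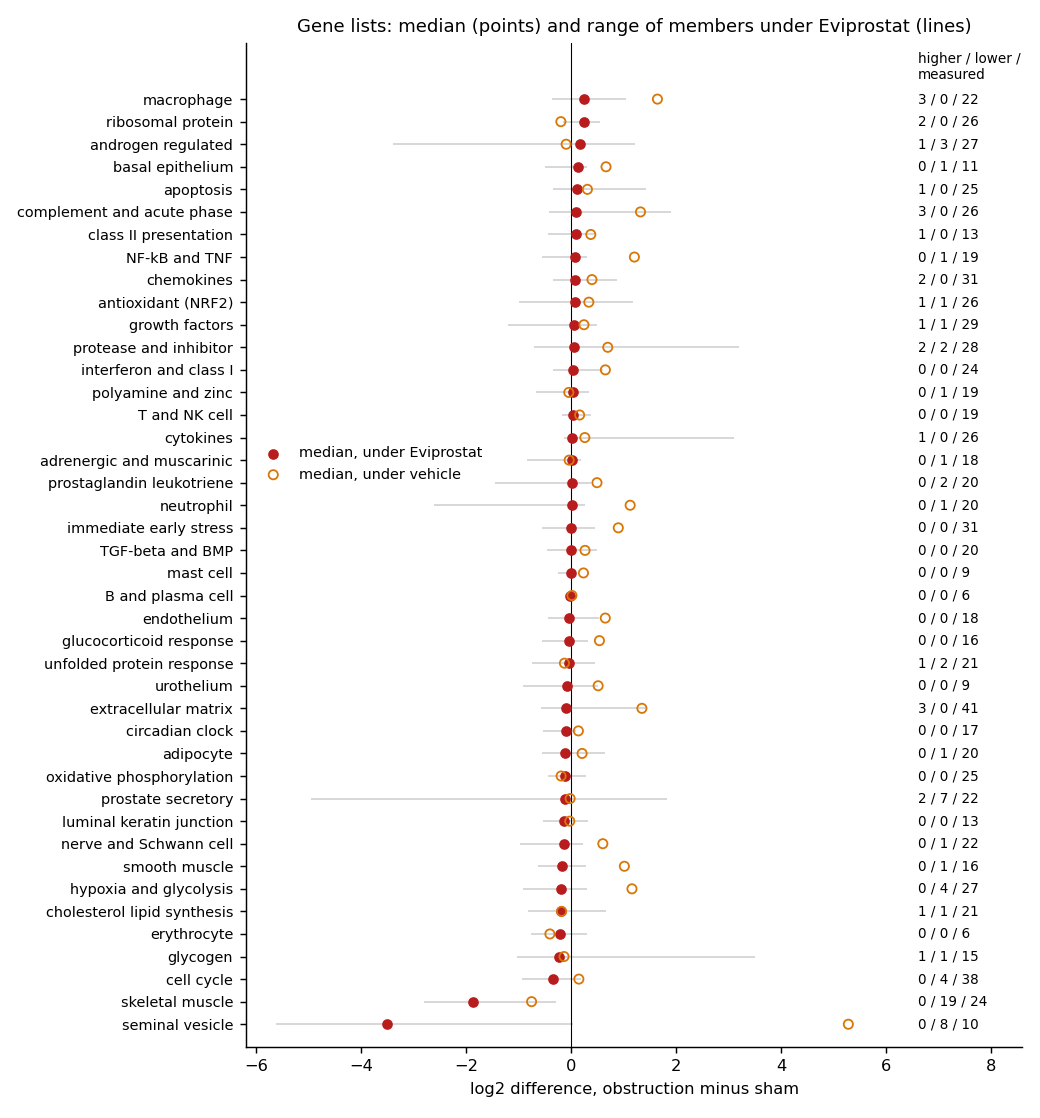
Median log2 difference of obstruction minus sham for each gene list under Eviprostat (filled) and under vehicle (open), with lines for the range of members under Eviprostat; the numbers at the right count members higher, lower and measured under Eviprostat. Seminal vesicle and skeletal muscle genes lie far below 0 under Eviprostat, at -3.51 and -1.87, and the next lowest median is that of the cell cycle genes at -0.34.

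The same operation was compared between treatments by testing the difference of the effects, (obstruction minus sham under Eviprostat) minus (obstruction minus sham under vehicle); these 2 effects share no arrays. The difference passed for 1490 of 14623 genes (10.2%) and for 223 of the 363 genes called under Eviprostat. Under vehicle 1441 genes were higher after obstruction (9.85%) and 757 lower (5.18%). The vehicle groups also differed in the amount of RNA labelled, as stated above. Of the genes higher under Eviprostat 38 were also higher under vehicle (41.3% of 92 and 2.64% of 1441) and 8 were lower. Of those lower under Eviprostat 54 were also lower under vehicle (19.9% of 271 and 7.13% of 757), while 63 were higher (23.2% of 271 and 4.37% of 1441).

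Opposite effects were largest in the secretory genes. Svs5 was higher by 7.77 after obstruction under vehicle and lower by -5.62 under Eviprostat, a difference of effects of -13.39 ± 0.50 (adjusted p = 1.89e-08), and 8 of 10 seminal vesicle genes differed this way. Serpina5 was higher by 6.31 under vehicle and Slpi by 5.16, with differences of effects of -11.86 and -7.77. Sham/Eviprostat and obstruction/vehicle stood above the reference for these genes. For Wfdc5 the order turned around: it was lower by -1.83 under vehicle, and the difference of effects was 3.65 ± 0.28 (adjusted p = 8.03e-06). Trpv6 and Qsox1 took the same turn as the seminal vesicle genes, with effects of 2.26 and 4.20 under vehicle and differences of effects of -4.16 and -7.48.

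A second pattern had the same direction and a smaller size under Eviprostat. Il1rn was higher by 5.31 under vehicle against 3.10 under Eviprostat, a difference of effects of -2.21 ± 0.34 (adjusted p = 0.00158). Timp1 was higher by 4.21 against 2.10, a difference of -2.11 ± 0.16, Lyz2 by 2.68 against 1.04 and Anxa1 by 4.06 against 1.38.

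Other genes were higher under vehicle and not called or lower under Eviprostat. For Il1b the effect under vehicle was 3.66, and the difference of effects was -3.47 ± 0.19 (adjusted p = 6.15e-07). Col1a1 was higher by 3.07 under vehicle, with a difference of effects of -3.35 ± 0.27. Gapdh was higher by 1.49 under vehicle and lower by -0.66 under Eviprostat. By list, the difference of effects passed for 13 of 22 macrophage genes, 9 of 20 neutrophil genes, 26 of 41 matrix genes and 16 of 27 glycolytic genes. Over all genes it passed for 1490 of 14623 (10.2%), 486 of them positive and 1004 negative. In the lists named here it was negative for each gene that passed, whatever the direction under Eviprostat.

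Some effects were found under Eviprostat and not called under vehicle, with the difference itself tested. Mmp7 had an effect of -0.18 under vehicle and a difference of effects of 3.37 ± 0.14 (adjusted p = 4.77e-08). Gys2 had -0.60 under vehicle and a difference of 4.10 ± 0.30 (adjusted p = 6.49e-06), and Defb1 a difference of 2.03 ± 0.22. Andpro had -0.68 under vehicle and a difference of -4.11 ± 0.30 (adjusted p = 6.68e-06), and Egf a difference of -1.42 ± 0.13. Plac8 was higher in both, by 1.15 under vehicle, and the difference of 2.03 ± 0.14 passed.

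For other called genes the difference of effects did not pass. Clu was higher by 1.41 under vehicle and 1.42 under Eviprostat, and the 95% interval of the difference ran from -0.89 to 0.92. For Tnnt2 the effects were 1.30 and 1.44 (interval of the difference -0.33 to 0.60) and for Nat8 1.499 and 1.59 (-0.45 to 0.62). Of 24 muscle genes 13 were lower and 1 higher under vehicle, where 5.18% of all genes were lower. Under Eviprostat 19 were lower and 0 higher, where 1.85% of all genes were lower. Pvalb was lower by -2.57 and -2.46 (-0.80 to 1.03) and Ckmt2 by -2.46 and -2.44 (-1.25 to 1.29), while Pygm, at -0.14 under vehicle, was among 7 muscle genes whose difference passed, all of them negative. Over all genes it passed for 1490 of 14623, of which 1004 were negative.

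**Figure D5:**
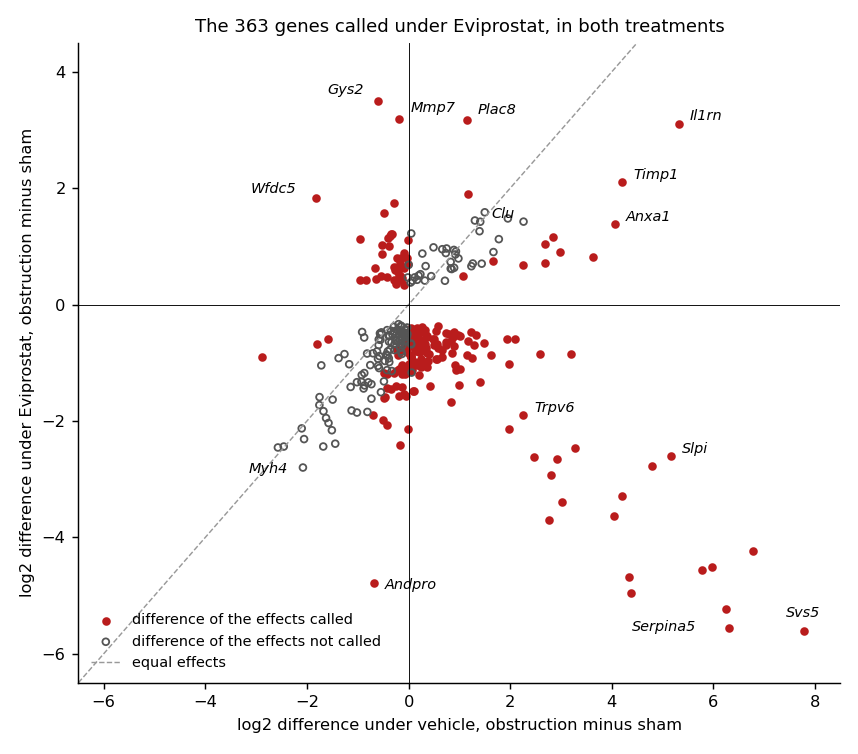
Each of the 363 genes called under Eviprostat is placed by its log2 difference of obstruction minus sham under vehicle (horizontal) and under Eviprostat (vertical); filled points passed the test of the difference of the effects, and the dashed line marks equal effects. Secretory genes lie at the lower right (Svs5 at 7.77 and -5.62), the muscle gene Myh4 at the lower left below the line (-2.08 and -2.80), and Mmp7 and Gys2 near 0 under vehicle.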

How the data were processed

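Rat prostate RNA was measured on 12 Agilent arrays of 2 colours, 3 for each of 4 groups. The deposited intensity values are scanner output, made with Agilent Feature Extraction 9.5.1.1 per the submitters' processing notes, and the deposited log10 ratios of red over green come from the same software per the file headers. Further steps are not given in the sources used here. Arrays lay on 3 slides of 4, and slide and replicate number coincide per the file headers.

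Mean and background intensity were corrected with normexp (offset 50), and log2 ratios were normalized by loess within each array, leaving out control and outlier spots. Spots of a probe were averaged. A probe was kept with Cy5 well above background on at least 3 of 12 arrays (36102 of 41012 probes). One limma fit of 12 arrays with 4 group means (8 residual degrees of freedom) gave each comparison, with Benjamini-Hochberg adjustment over all kept probes and a threshold of 0.05. Intervals are 95% intervals of that fit, and the number of arrays limits their precision. Errors after ± are standard errors. A gene is its brightest kept probe, named through accessions, current symbols or synonyms of RefSeq GRCr8; 20837 probes have no symbol, among them 397 of the called ones. The fit was tested on simulated data for obstruction against sham under Eviprostat, in which 50 probes of 36102 were changed at each size: 26% were recovered at a log2 size of 0.5, 84% at 1 and 96% at 2, with 17 calls among unchanged probes. The simulated noise was independent between arrays and had no slide effect. Real arrays of a slide deviated together, so these figures need not hold for the data.

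Same-numbered arrays of the compared groups deviated together (correlations 0.602, 0.413 and 0.396 over probes) and shared a slide, and the numbers were taken to pair them. Replicates 2 and 3 also correlated across numbers (0.439 and 0.331), so the pairing rests on the slides in the headers. Members, lists and settings were chosen with earlier results of these data known. The genes named are the 15 largest called differences each way with a like sign on 3 slides, for each list up to 4 called each way and 2 nearest the threshold, a fixed set of genes of prior interest, and the 5 largest called differences of effects; Svs1, Svs3b, Svs4, Tnnc2 and the muscle genes listed with a promoter motif were named after their values were seen. Some items that the rule names are not reported here. Software was R 4.3.3, limma 3.58.1, statmod 1.5.0, data.table (version 1.17.8), Python 3.11.15, pandas 2.3.3 and matplotlib 3.10.9.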

Additional observations from a re-analysis of the deposited data

Results flagged for a closer look

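For 66 of the genes with values above, the effect of obstruction differed between Eviprostat and vehicle by limma's test of the difference of effects. The values here are log2 differences of effects, Eviprostat minus vehicle, and no explanation of them was tested. They belong to genes chosen for description, of which many were chosen for a large difference under Eviprostat.

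Among secretory genes and protease inhibitors the values were -13.39 for Svs5, -11.48 for Svs3a, -11.01 for Svs6, -10.35 for Svs7, -10.48 for Spink1l and -11.86 for Serpina5. They were -9.34 for Scgb1d4, -9.02 for Scgb1d2, -4.11 for Andpro, -6.47 for Sbp, -7.68 for Wfdc21, -7.77 for Slpi and -3.88 for Spink1. The kallikreins Klk1c9, Klk1c2 and Klk1 had -6.41, -5.73 and -2.73. Qsox1, Trpv6 and Egf had -7.48, -4.16 and -1.42.

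Values above 0 were found for Gys2 (4.10), Wfdc5 (3.65), Mmp7 (3.37), Sult1b1 (2.06), Plac8 (2.03), Defb1 (2.03), Wfdc3 (1.99), Pbsn (1.55), Tmprss2 (1.54), Mt3 (1.14) and A2m (0.72). They were also found for Idi1 (0.81), Rps23 (0.72) and Herpud1 (0.58).

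Among immune and matrix genes the values were -3.47 for Il1b, -3.35 for Col1a1, -3.35 for Fcgr2a, -2.81 for Ccl6, -2.68 for Anxa1, -2.21 for Il1rn, -2.17 for Tyrobp, -2.11 for Timp1, -1.84 for Mmp2, -1.64 for Lyz2, -1.58 for Loxl1, -0.76 for Ctsd and -0.59 for Selp. Jun had -2.004 and Lta4h -1.49. Glycolytic and hypoxia genes had -3.44 (Adm), -2.81 (Pkm), -2.68 (Ldha), -2.17 (Aldoa) and -2.15 (Gapdh). Cell cycle genes had -1.49 (Cdk1), -1.33 (Mcm6), -0.99 (Top2a) and -0.95 (the probe listed for Aurkb).

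The remaining genes had -1.80 (Myh11), -1.70 (Chrm3), -1.36 (Tubb3), -1.23 (Krt15), -1.12 (Gstm1), -0.90 (Pygm), -0.71 (Slc2a4), -0.67 (Hmgcs1) and -0.58 (Igfbp4).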

How the results depend on the processing

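Of 76 called genes described with values, 0 changed direction under any of the 19 settings run. The replicate block, which pairs arrays of a slide, kept all 76 and gave 1599 probes higher and 1558 lower (1355 and 1337 with only the 6 arrays compared) against 350 and 473, and 7921 probes with a called difference of effects against 3127. Median centring kept 30 of 76 and gave 33 higher and 107 lower probes, 20 and 96 of them at least 2-fold, and 1017 differences of effects. The deposited log ratio gave 2038 and 2241, 176 and 431 at least 2-fold, and 11713. Slides 2 and 3 alone gave 979 and 1296. Without background correction 26 and 85 probes were at least 2-fold and 5830 differences of effects were called. Without 1 array the counts ran from 110 to 233 higher, from 230 to 510 lower and from 1819 to 5857 differences of effects, lowest for higher probes and for differences of effects without obstruction/Eviprostat replicate 2, for lower probes without sham/Eviprostat replicate 2, and the last count highest without obstruction/vehicle replicate 2. Of the 76 genes 13 to 28 lost their call without 1 array. The cause of these changes was not tested. Slide 1 arrays correlated with their group's others at 0.374 to 0.455, and those of slides 2 and 3 at 0.801 and 0.864. Spink1 was not well above background on the obstruction arrays, and no fold is given for it.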
